A study of Rattus norvegicus with 24 samples.

Results

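Gene expression in the brain stem of rats that ate rotenone at 400 ppm was compared between day 14 and day 3 of the diet, with 4 treated arrays at day 14 and 4 treated arrays at day 3, chosen by their titles among 24 brain stem arrays. The 4 control arrays of day 14 and the 4 control arrays of day 3, from rats given the same chow without rotenone, show how the tissue changed over the same days. The remaining 8 arrays, 4 treated and 4 control at day 1, entered the fit only to estimate the spread. All rats were male Wistar (RccHan:WIST) animals aged 7-8 weeks at the start, and each array held the RNA of 1 rat, so that no rat was followed over time. Treated and control rats of day 14 were therefore older than those of day 3, and the duration of the diet and age cannot be told apart within the treated rats. The Affymetrix RTA 1.0 array measured 68842 transcript clusters, which are groups of probes that together report a gene or some other transcribed stretch, and 22093 genes were represented by 1 cluster each. All values are log2 intensities, in which a difference of 1 is a doubling, and all differences are day 14 minus day 3.

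Rotenone blocks complex I of the mitochondrial respiratory chain, which passes electrons from NADH to ubiquinone. The brain stem carries densely myelinated fibre tracts, and its oligodendrocytes keep forming from precursor cells after birth. The brain makes its own cholesterol, since the blood-brain barrier keeps out that of the blood, and myelin holds much of it. A bulk array cannot tell fewer cells of a type from less RNA per cell.

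Day 14 was lower than day 3 in treated rats for a small set of clusters. In the limma fit 13 of 68842 clusters (0.0189%) had an adjusted p under 0.05, of which 12 were lower (0.0174%) and 1 was higher. Of the 13, 9 carried the symbol of 1 gene, and the 4 others carried none. In controls, 0 clusters (0%) passed between the same days, with 2430 (3.53%) at an unadjusted p under 0.05 from limma, against 5245 (7.62%) in treated rats. For the difference between the treated and the control change, 0 clusters (0%) passed, with 3452 (5.01%) at an unadjusted p under 0.05 from limma. A change in treated rats was thus not shown to differ from that of the controls for any cluster. In all 13 clusters the control change was smaller than the treated change, and in 11 it had the same sign. These clusters were chosen by their treated change, so a smaller control change was likely in advance and shows no difference between the arms.

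The genes that passed were Capn6, Gpr17, Sema4d, Mpzl1, Ptpro, Frmd4a, Tnr, Lgi4 and Marcks, and each was lower at day 14. Their 4 treated arrays of day 14 did not overlap with the 4 treated arrays of day 3, for which the two-sided exact permutation test gives p = 0.029, the smallest that 4 against 4 arrays allow. The genes were chosen on these same arrays, so neither the lack of overlap nor this p-value is independent support. Over all genes, 5.84% were lower and 2.02% were higher without overlap in treated rats, against 1.07% lower and 1.15% higher in control rats. The genomic windows upstream of the start of Gpr17 and Capn6, the genes with the lowest adjusted p and the largest fall, are given with those of Mvk and Mvd, the first genes of the cholesterol synthesis list that had a window. Each holds the 250 bases before the start on the strand of the gene, from RefSeq on the GRCr8 assembly, with matches to the CCAAT box in capitals (CCAAT, or ATTGG for the opposite strand). The windows are chr18:23857382-23857631 for Gpr17, chrX:112202179-112202428 for Capn6, chr12:47819504-47819753 for Mvk and chr19:67414975-67415224 for Mvd, all on the minus strand.
Gpr17: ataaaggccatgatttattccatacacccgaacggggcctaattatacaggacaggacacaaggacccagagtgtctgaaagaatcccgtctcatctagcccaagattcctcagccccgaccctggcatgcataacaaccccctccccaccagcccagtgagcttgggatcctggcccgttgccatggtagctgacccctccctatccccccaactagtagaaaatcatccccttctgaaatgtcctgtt
Capn6: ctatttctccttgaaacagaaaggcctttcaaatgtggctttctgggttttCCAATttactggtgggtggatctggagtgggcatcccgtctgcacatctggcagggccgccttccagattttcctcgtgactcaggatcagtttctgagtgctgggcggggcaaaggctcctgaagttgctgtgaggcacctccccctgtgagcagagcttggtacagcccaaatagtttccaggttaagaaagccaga
Mvk: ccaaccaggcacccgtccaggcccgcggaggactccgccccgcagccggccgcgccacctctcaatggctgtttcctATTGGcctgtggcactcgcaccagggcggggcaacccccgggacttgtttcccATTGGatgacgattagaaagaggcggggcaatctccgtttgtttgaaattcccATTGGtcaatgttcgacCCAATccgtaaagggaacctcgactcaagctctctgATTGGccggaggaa
Mvd: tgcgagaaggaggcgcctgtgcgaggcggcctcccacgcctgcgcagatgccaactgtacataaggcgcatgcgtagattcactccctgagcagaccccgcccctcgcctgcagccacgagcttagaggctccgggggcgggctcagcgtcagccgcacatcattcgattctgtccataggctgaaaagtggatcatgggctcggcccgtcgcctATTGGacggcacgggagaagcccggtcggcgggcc

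Gpr17, a receptor that oligodendrocyte precursors carry while they commit to maturation, had 9.47, 9.29, 9.28 and 9.05 in the treated rats of day 14, against 10.56, 10.94, 10.44 and 10.71 in the treated rats of day 3. All 4 arrays of day 14 lay below the lowest of day 3. It fell by 1.39 on the log2 scale (limma adjusted p = 0.00060, with a standard error, SE, of 0.16). In controls it had 10.72, 10.02, 10.46 and 10.65 at day 14, against 10.96, 10.97, 10.82 and 10.91 at day 3. The control days did not overlap either, with a difference of -0.45 that did not pass the test. The treated change exceeded the control change by -0.94 (limma adjusted p = 0.96, SE 0.23). No CCAAT match lies in the window of Gpr17 given here.

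Capn6, a calpain family protein without protease activity that binds microtubules, had the largest fall of a named gene that passed. It had 7.18, 6.42, 6.84 and 6.79 in the treated rats of day 14, against 8.22, 8.88, 7.94 and 8.35 in those of day 3. It fell by 1.54 (limma adjusted p = 0.0036, SE 0.21), while the controls of day 14 had 8.70, 7.80, 8.36 and 8.13 and those of day 3 had 8.50, 8.71, 8.57 and 8.64. All treated arrays of day 14 stood below all control arrays, and the control days overlapped. Its upstream window holds 1 CCAAT match, 194 bases before the start.

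Tnr encodes tenascin R, a glycoprotein of the extracellular matrix that cells of the oligodendrocyte lineage secrete. It had 11.03, 11.07, 10.77 and 10.80 in the treated rats of day 14, against 11.46, 11.60, 11.38 and 11.63 in those of day 3, and it fell by 0.60 (limma adjusted p = 0.015, SE 0.09). The highest treated array of day 14 lay below the lowest of day 3, and the control difference was -0.20. Sema4d, a membrane-bound semaphorin that oligodendrocytes make, had 10.86, 10.67, 10.58 and 10.69 at day 14, against 11.56, 11.95, 11.61 and 11.86 at day 3 in treated rats. It fell by 1.05 (limma adjusted p = 0.019, SE 0.17), with no overlap of the treated groups and a control difference of -0.24.

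Mpzl1, a surface glycoprotein related to myelin protein zero that binds the phosphatase Shp2, averaged 10.87 ± 0.15 in treated rats of day 14 and 11.69 ± 0.17 in those of day 3 (SD, n = 4 each). It fell by 0.82 (limma adjusted p = 0.011, SE 0.12), and the control difference was -0.13. Frmd4a, a scaffold protein of cell polarity, averaged 10.28 ± 0.14 in treated rats of day 14 and 11.06 ± 0.11 in those of day 3 (SD, n = 4 each), and it fell by 0.78 (limma adjusted p = 0.0036). A second, dimmer cluster of Frmd4a, with a mean of 6.15, had a difference of 0.20, so the 2 clusters of this gene disagreed. Each of the other genes that passed had 1 cluster only.

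Marcks, a substrate of protein kinase C that binds actin, had 11.87, 11.59, 11.73 and 11.80 in the treated rats of day 14, against 12.26, 12.44, 12.22 and 12.17 in those of day 3, and fell by 0.53 (limma adjusted p = 0.036, SE 0.09). Its control arrays did not overlap between the days either, with a difference of -0.23 that did not pass. Ptpro, a receptor-type tyrosine phosphatase, averaged 8.76 ± 0.17 in treated rats of day 14 and 9.57 ± 0.19 in those of day 3 (SD, n = 4 each), and it fell by 0.82 (limma adjusted p = 0.041) with a control difference of -0.27. Lgi4, a secreted protein that glia of mouse peripheral nerves need to form myelin, had 9.54, 9.41, 9.47 and 9.59 at day 14, against 10.07, 10.25, 9.97 and 9.86 at day 3 in treated rats. It fell by 0.54 (limma adjusted p = 0.049, SE 0.09) and was the only one of the 9 genes with a control difference above 0, which was 0.08. Its treated change exceeded the control change by -0.62 (limma adjusted p = 0.96, SE 0.13).

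**Figure D1:**
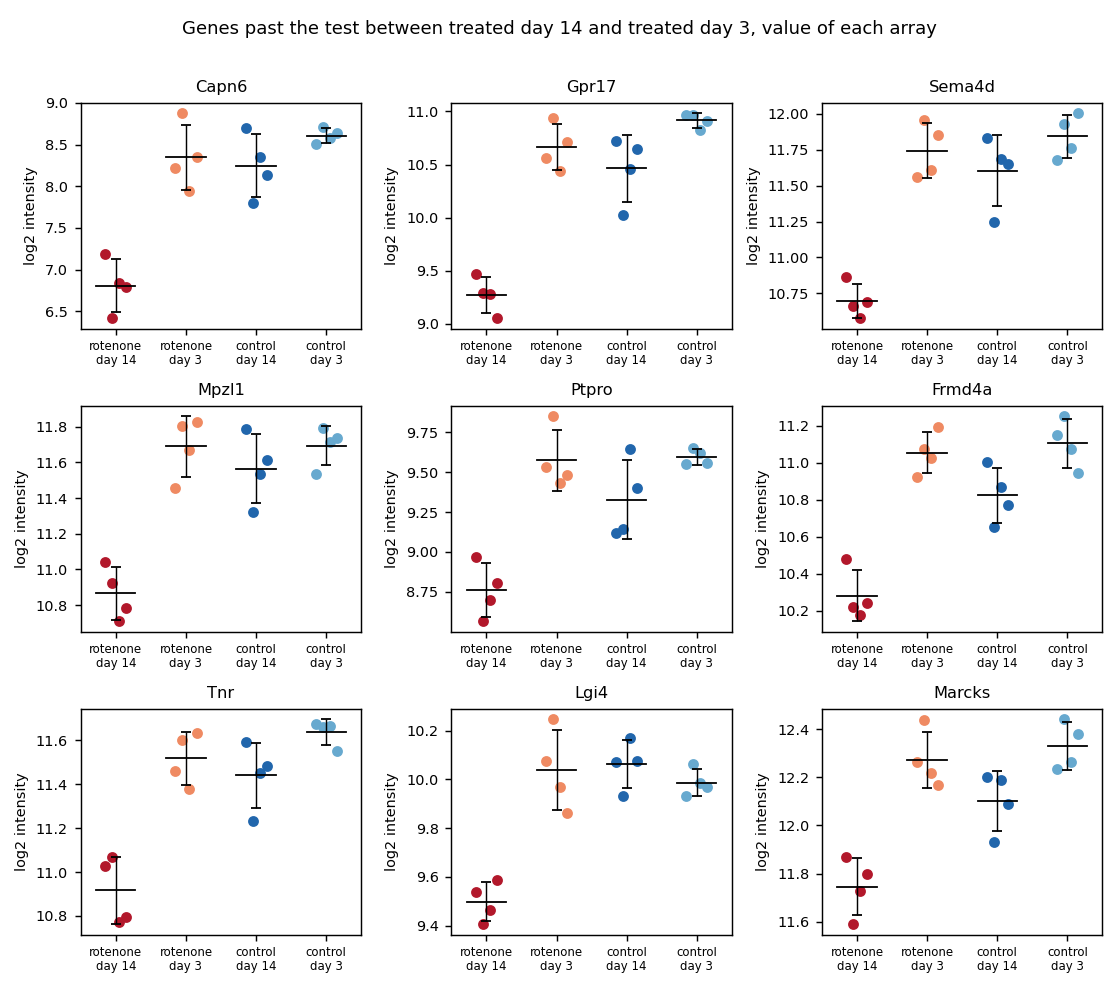
Log2 intensity of each array (points) for the 9 genes past the test between treated day 14 and treated day 3, with the mean (line) and SD (bar) of each group of 4 rats. For each gene the rotenone arrays of day 14 lie below those of day 3 without overlap, and below all control arrays of both days.

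Leaving out 1 of the 16 arrays of days 3 and 14 did not end the calls of Gpr17, Capn6 and Frmd4a, whereas Mpzl1 and Tnr passed in 12 of 16 such fits, Sema4d in 11, Marcks in 6, Ptpro in 4 and Lgi4 in 1. The calls were lost for all 9 genes when only the 8 treated arrays were fitted and when the mean of 4 red cell markers entered as a covariate, where the differences of Gpr17, Capn6 and Frmd4a were -1.14, -1.34 and -0.77. That mean did not overlap between the treated days, so this covariate cannot be separated from the days. Quantile normalization ended the calls of Ptpro, Lgi4 and Marcks (limma adjusted p = 0.10, 0.10 and 0.054), and centring of the arrays ended these and that of Tnr (0.098, 0.12, 0.12 and 0.092 for Ptpro, Lgi4, Marcks and Tnr). The count of 13 clusters became 75 without 2 control arrays of day 1 that held cerebellar transcripts, and 4 without treated day 14 replicate 3 or 4 or treated day 3 replicate 4.

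Of the 4 clusters without a gene symbol that passed, 3 were lower and 1 was higher. TC1500002172.rn.1 had 8.50, 8.16, 7.80 and 7.89 in the treated rats of day 14, against 9.49, 9.61, 9.49 and 9.94 in those of day 3, and fell by 1.55 (limma adjusted p = 0.00060, SE 0.18) with a control difference of -0.44. TC1800001182.rn.1 fell by 1.29 (limma adjusted p = 0.011, SE 0.19). The cluster that rose, TC0800000629.rn.1, had 6.00, 6.14, 5.89 and 6.32 at day 14, against 5.31, 5.22, 5.62 and 4.82 at day 3 in treated rats. It rose by 0.85 (limma adjusted p = 0.049) and lay below the median cluster of 6.24 on average.

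No gene with a symbol was higher at day 14 past the test. The 10 genes above the median cluster with the smallest p among those higher without overlap are given by their values. Mir211, a microRNA gene, had 8.92, 9.08, 9.27 and 9.23 in treated rats of day 14, against 8.59, 8.39, 8.48 and 8.76 in those of day 3, with a difference of 0.57 (limma adjusted p = 0.32) and a control difference of 0.17. The cluster covers the gene and does not separate its arms. The sequence of the 5′ arm is shown because the array names the gene alone, with its seed, bases 2 to 8, in capitals (RefSeq, GRCr8, chr1:127189353-127189374, plus strand).
rno-miR-211-5p: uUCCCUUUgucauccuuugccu

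Prim1, the catalytic subunit of DNA primase, had 11.81, 11.69, 11.88 and 12.02 in the treated rats of day 14, against 11.15, 11.10, 11.08 and 9.98 in those of day 3. The groups did not overlap, with 1 array of day 3 far below the other 3, and the difference of 1.02 had an adjusted p of 0.33 from limma, with -0.24 in controls. Rsph4a, a part of the radial spokes of motile cilia, differed by 0.86 in treated rats and by -0.49 in controls, and its highest arrays, with 7.97 and 7.73, were treated day 14 replicates 1 and 3. The differences of the glutathione transferase gene Gsta4l1, of Gnat2, a transducin of cone photoreceptors, of the myosin gene Myo18b, of the odorant-binding gene Obp1f, and of Ccdc171, Zfp970l and Rbbp7-ps1 lay between 0.30 and 0.53. Tnfrsf19, a receptor of the tumour necrosis factor family, was the lower gene nearest to the threshold, with -0.46 (limma adjusted p = 0.063) and -0.09 in controls, and it passed in 7 of 30 alternatives.

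**Figure D2:**
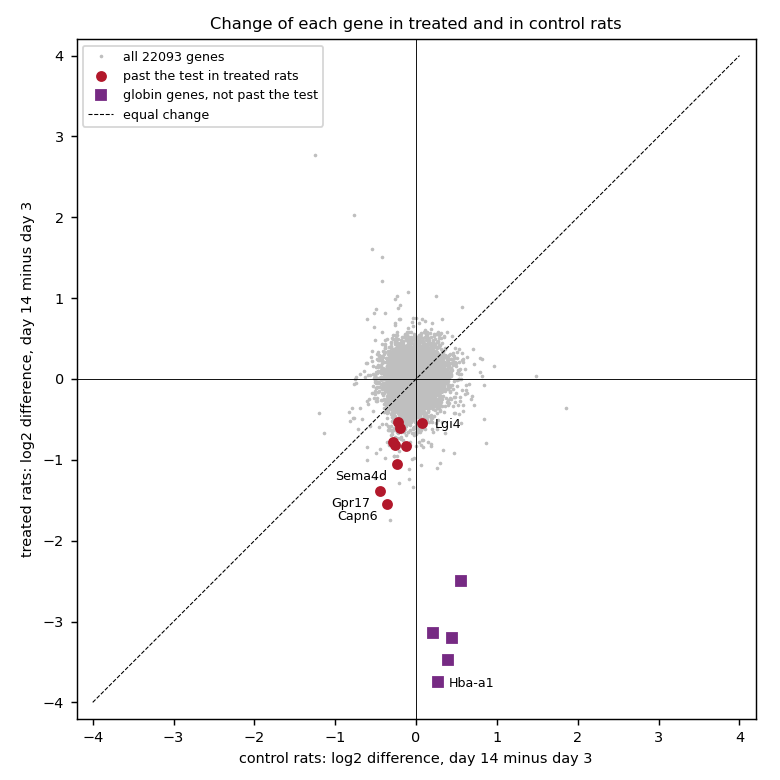
Log2 difference between day 14 and day 3 in treated rats (vertical axis) against that in control rats (horizontal axis), 1 point for each of 22093 genes, with the genes past the test in red and 5 globin genes as squares. The red points, which were chosen by their treated change, lie below the dashed line of equal change, and 8 of the 9 lie left of 0 on the horizontal axis.

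Across all 22093 genes, the treated and the control change were hardly related (r = 0.015), and across the 14463 genes above the median cluster r was 0.11. Genes are not independent replicates, and the 2 changes share the normalization of the arrays but no rats. The median difference in treated rats was -0.01 over all genes. Among the genes above the median cluster it was -0.05, with 9552 lower and 4911 higher, and 1251 were lower but 175 higher without overlap. The gene lists are read beside these values, since most of their members lie above the median cluster. Each count without overlap in a list stands beside the 1251 lower and 175 higher of these 14463 genes. Gpr17 and Tnr were the only members of any of the 38 lists that passed the test.

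Genes of oligodendrocyte precursors were lower at day 14 in treated rats in 14 of 15 members. Of these, 8 had arrays without overlap and 2, Gpr17 and Tnr, passed the test. Gpr17 was already named in earlier results of these data, so its call is not independent support for the list. All 15 lie above the median cluster, where 1251 of 14463 genes were lower without overlap. The median difference was -0.37, against -0.07 in controls, where 12 of 15 were lower and 2 were lower without overlap. Pdgfra, the receptor through which these cells take up their growth signal, had 11.93, 11.35, 11.45 and 11.52 at day 14, against 11.98, 12.19, 11.80 and 11.77 at day 3 in treated rats. Its difference of -0.37 (limma adjusted p = 0.65) came with an overlap of 1 array. Cspg4, the proteoglycan NG2 of these cells, differed by -0.34 without overlap (limma adjusted p = 0.26), against -0.07 in controls. Olig1, a transcription factor of the lineage named after its values were seen, had 12.49, 12.33, 12.58 and 12.36 at day 14, against 13.16, 13.10, 12.88 and 13.30 at day 3, and its difference was -0.67 (limma adjusted p = 0.33) with -0.05 in controls. The mean over the 15 genes lay between 9.67 and 9.88 in treated rats of day 14 and between 10.02 and 10.42 in those of day 3.

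Genes of mature oligodendrocytes and myelin were lower in 19 of 19 members, 8 of them without overlap and 0 past the test. The median was -0.29 in treated rats and -0.15 in control rats, where 15 of 19 were lower and 4 were lower without overlap. Mog, a protein of the outer surface of myelin, had 14.36, 14.42, 14.16 and 14.40 at day 14, against 14.54, 14.57, 14.81 and 14.88 at day 3 in treated rats, with a difference of -0.36. Mag, an adhesion protein of the inner myelin layer, differed by -0.39 without overlap, and Mbp, which compacts the myelin membranes, by -0.29 with overlap. In controls these differences were -0.18, -0.06 and -0.15 for Mog, Mag and Mbp. Ugt8, which makes the galactolipids of myelin and was named after its values were seen, had the largest difference of the list, -0.82 (limma adjusted p = 0.32), with 15.93 to 16.15 at day 14 and 16.78 to 16.99 at day 3 in treated rats.

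Genes of cholesterol synthesis and its control were lower at day 14 in treated rats in 19 of 19 members. Of these, 15 of 19 were lower without overlap, against 5.84% of all genes and 1251 of 14463 genes above the median cluster. None passed the test, and the median was -0.38, against -0.12 in control rats, where 18 of 19 were lower and 3 were without overlap. Mvk, the kinase of mevalonate, had 8.87, 8.62, 8.75 and 8.83 at day 14, against 9.15, 9.27, 9.11 and 9.04 at day 3 in treated rats, without overlap, a difference of -0.37 (limma adjusted p = 0.40), and its control days overlapped. Pmvk, the next kinase of the pathway, differed by -0.34 without overlap, and Mvd, which decarboxylates its product, by -0.20 with overlap. Lss, which closes the sterol rings to lanosterol and had the largest difference of the list, was named after its values were seen. It had 10.21, 10.28, 10.17 and 10.02 at day 14, against 10.98, 11.15, 10.77 and 11.02 at day 3 in treated rats, with -0.81 (limma adjusted p = 0.25, SE 0.20), against -0.34 in controls. Srebf2, the transcription factor that drives this pathway, differed by -0.18 without overlap.

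Mvk and Mvd were searched for the CCAAT box with the rest of their list. Of the 19 cholesterol synthesis genes, 15 had a window, and 13 of these (86.7%) held at least 1 match on either strand within the 250 bases, against 11385 of the 33469 windows (34%) in the RefSeq table, which holds more genes than the array comparison. The share was also above that of the whole table in the other lists searched, with 9 of 14 windows (64.3%) for fatty acid synthesis, 6 of 11 (54.5%) for oligodendrocyte precursors and 10 of 21 (47.6%) for interferon genes. Mvk held 5 matches, the nearest 9 bases before the start, and Mvd held 1 at 30 bases. Of the genes past the test, 7 had a window, and 4 of these held a match. The E-box (CANNTG, the same on both strands) was in 9 of the 15 windows of cholesterol genes (60%), against 65.5% of all windows. A match is a stretch of letters only, and no binding was measured.

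Genes of fatty acid synthesis and desaturation were lower in 16 of 17 members in treated rats, 10 of them without overlap and 0 past the test. Their median was -0.30 in treated rats and -0.09 in controls, where 13 of 17 were lower and 1 was lower without overlap. With the red cell covariate the median was -0.18. Fasn, the fatty acid synthase, had 12.98, 12.70, 12.65 and 12.74 at day 14, against 13.27, 13.27, 13.08 and 13.20 at day 3 in treated rats, a difference of -0.44 (limma adjusted p = 0.51) with 0.11 in controls. Acaca, which makes malonyl-CoA, and Scd, a desaturase, differed by -0.26 and -0.65, both without overlap. Elovl6, an elongase named after its values were seen, had the smallest p of the list, with -0.50 (limma adjusted p = 0.21) and -0.09 in controls. Srebf1 differed by 0.10 and was the 1 member that was higher.

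Genes of fatty acid oxidation and ketone use had a median of -0.15, with 6 of 18 lower without overlap. Cpt1a and Cpt1c, forms of the transferase that brings fatty acids to mitochondria, differed by -0.09 and -0.05, and Cpt2 of the inner membrane by -0.17. The monocarboxylate transporter Slc16a1, named after its values were seen, differed by -0.46 without overlap and by -0.26 in controls. Without treated day 3 replicate 2 the median of the list was -0.10, and with the red cell covariate it was -0.06.

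**Figure D3:**
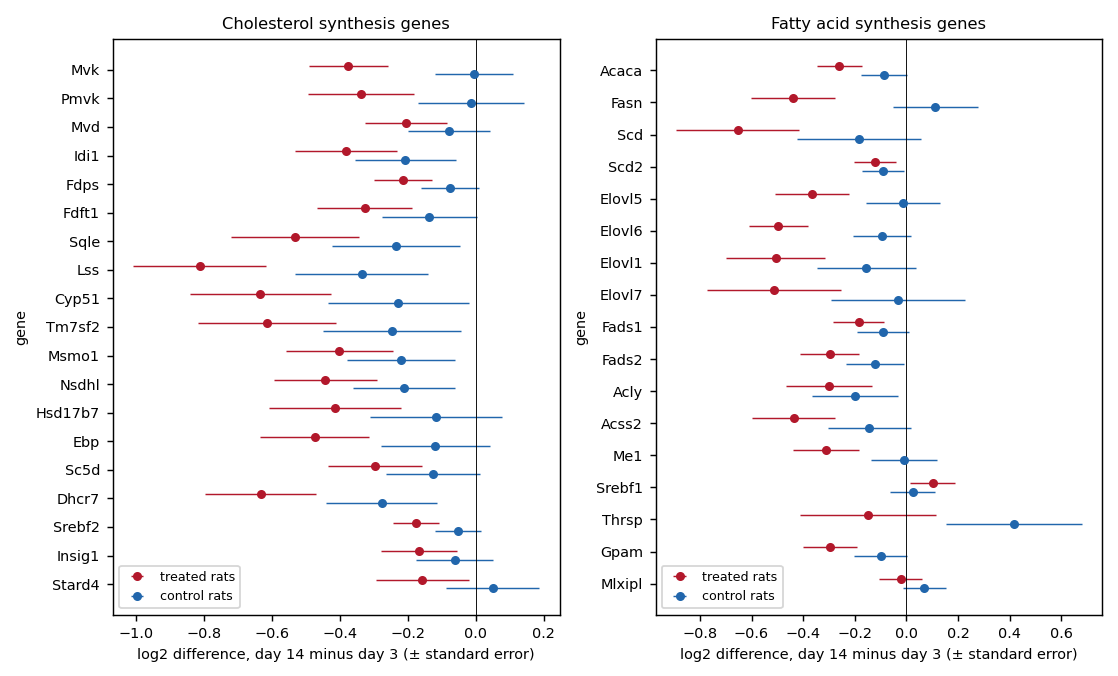
Log2 difference between day 14 and day 3 with its standard error for each gene of cholesterol synthesis (left) and fatty acid synthesis (right), in treated rats (red) and control rats (blue), in the order of the lists. All 19 cholesterol genes lie left of 0 in treated rats, and Lss reaches -0.81.

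Among markers of blood and of tissue beside the brain stem, only the red cell mean separated the treated days. The means of meningeal, choroid plexus and cerebellum markers overlapped. The mean of 4 red cell markers was 10.07, 8.66, 8.43 and 7.32 in the treated rats of day 14, against 10.59, 11.57, 10.17 and 10.15 in those of day 3, without overlap. In control rats it was 11.14, 11.38, 12.07 and 12.06 at day 14, against 12.01, 11.50, 11.25 and 10.68 at day 3. Hba-a1, an alpha chain of hemoglobin, had 15.59, 12.43, 12.15 and 9.28 in the treated rats of day 14, against 16.15, 16.88, 15.58 and 15.84 in those of day 3. Replicate 1 of day 14 overlapped with day 3, and the difference of -3.75 (standard error 0.75) did not pass (limma adjusted p = 0.12), against 0.27 in controls. Without that replicate the difference of Hba-a1 was -4.82 and passed (limma adjusted p = 0.00038), and it also passed among clusters with 1 symbol, with array weights and with the cerebellum and choroid plexus covariates. Over 30 alternatives its adjusted p from limma lay between 0.00038 and 1.00.

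Among the other globin genes, Hbbl1, Hbb-b1, Hbb-bs, Hba-a3 and Hbb differed by -3.47, -3.20, -3.15, -2.50 and -1.10 in treated rats and by 0.21 to 0.56 in controls, and none passed the test (adjusted p between 0.21 and 0.48 from limma). Without treated day 14 replicate 1, Hbbl1 passed as well, with -4.29 (limma adjusted p = 0.038). These paralogs may share probes. Alas2, the first enzyme of heme synthesis in red cells, differed by -0.92 without overlap, whereas Slc4a1, the anion exchanger of red cells, differed by -0.14. The list of 16 red cell genes had a median of -0.17, which was -1.01 over its members above the median cluster and 0.09 with the red cell covariate. That covariate is the mean of Hbb-b1, Hba-a1, Alas2 and Slc4a1, so it takes out the change of red cell genes by construction. Tfrc and Fech, which belong to the list of 16 genes but not to the covariate and which other cells also express, had differences of -0.06 and -0.10.

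Among meningeal and matrix genes, 20 of 22 were lower in treated rats, 8 without overlap and 0 past the test. Their median was -0.61, against -0.08 in controls, where 20 of 22 were also lower and 1 was lower without overlap. Col1a1, a chain of type I collagen, had 7.80, 7.46, 7.50 and 7.40 at day 14, against 8.63, 8.50, 8.46 and 8.38 at day 3 in treated rats, a difference of -0.96 (limma adjusted p = 0.46) with -0.28 in controls. Col1a2 and Col3a1 differed by -0.95 and -0.61, both without overlap. The control arrays of Col1a1 ranged from 7.44 to 8.68, over a range as wide as that between the treated groups. With the red cell markers as a covariate the median of the list was -0.01, and it was between -0.74 and -0.47 when 1 array was left out.

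Endothelial and pericyte genes were lower in 21 of 21 members in treated rats, 5 without overlap and 0 past the test. Their median was -0.39 in treated rats and -0.14 in controls, where 18 of 21 were lower and 1 was lower without overlap. Cldn5, a tight junction protein of the blood-brain barrier, had 9.30, 9.13, 9.21 and 9.00 at day 14, against 9.76, 9.54, 9.66 and 9.89 at day 3 in treated rats, a difference of -0.55 (limma adjusted p = 0.40) with -0.15 in controls. Pecam1, an adhesion molecule of endothelium, and Flt1, a receptor of vascular endothelial growth factor, differed by -0.42 and -0.24. With the red cell markers as a covariate the median was -0.21.

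Choroid plexus genes stood apart by single rats. Ttr, the transthyretin that this tissue secretes, had 16.59, 8.49, 14.83 and 7.85 in the treated rats of day 14, against 8.20, 12.51, 8.09 and 7.88 in those of day 3, with a difference of 2.77 (limma adjusted p = 0.80, SE 2.01). Replicates 1 and 3 of day 14 were high, replicates 2 and 4 were not, and treated day 3 replicate 2, control day 14 replicate 2 with 12.39 and control day 3 replicate 3 with 15.18 were high as well. Kl and Folr1 differed by 2.03 and 0.49 with the same 2 arrays of day 14 highest. The median of 16 genes was 0.66, against -0.22 in controls, and 0.25 without treated day 14 replicate 1. With marker means of cerebellum and choroid plexus as covariates, 23 clusters passed the test in treated rats, 11 of them among the 13.

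**Figure D4:**
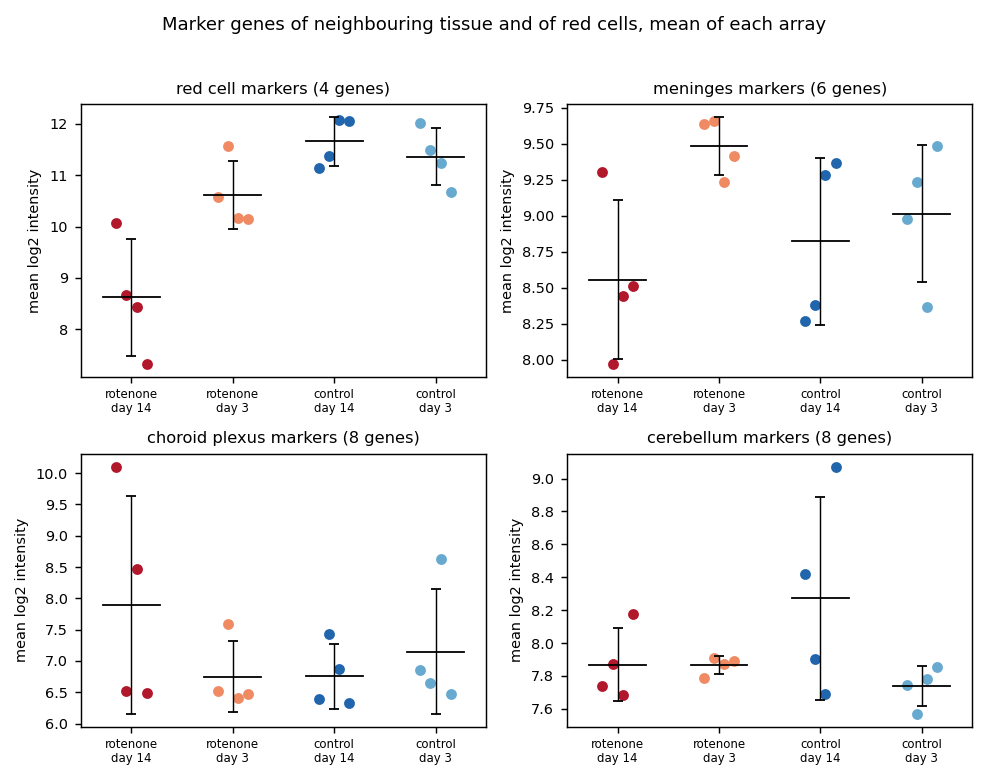
Mean log2 intensity of marker genes in each array (points), with the mean (line) and SD (bar) of each group of 4 rats, for red cells, meninges, choroid plexus and cerebellum. The red cell mean of rotenone day 14 lies below the 3 other groups, and the choroid plexus mean is high in single rats of several groups.

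Over the 16 arrays of both days, hindbrain markers had a mean between 8.66 and 9.80. Control day 14 replicate 1 and treated day 14 replicate 2 were lowest, with 8.66 and 8.71. Each also had the lowest Tph2 of its group, with 7.55 and 9.33, and Tph2 is 1 of the 12 hindbrain markers. The part of this in the Tph2 difference was not tested. Forebrain markers had a mean between 6.20 and 6.61 near the median cluster. Cerebellum markers had a mean between 7.57 and 9.07, where control day 14 replicate 4 was highest. Intensity medians of the 8 treated arrays lay between 71.6 and 82.6. Their upper quartiles were 285.7, 298.8, 278.6 and 278.0 at day 14, against 292.8, 293.0, 298.8 and 300.2 at day 3. After quantile normalization the list median was -0.32 for cholesterol synthesis, -0.22 for myelin and -0.00036 for complex I, against -0.38, -0.29 and -0.06 in the main fit. The part of this shift in the bright genes was not tested further. The part of blood, meninges, choroid plexus and cerebellum in the results was not tested. The fit with the red cell covariate cannot separate blood from the days, since the red cell mean did not overlap between the treated days.

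Interferon and antigen presentation genes were lower in 21 of 26 members in treated rats, 7 without overlap and 0 past the test, with a median of -0.23, against 0.01 in controls. The median was -0.34 over members above the median cluster and -0.07 with the red cell covariate. Ifit1, an interferon-induced protein that binds foreign RNA, had 5.80, 5.89, 5.08 and 5.96 in the treated rats of day 14, against 7.23, 7.92, 7.19 and 7.39 in those of day 3. Its difference of -1.75 (standard error 0.38) did not pass (limma adjusted p = 0.17), its day 14 values lay below the median cluster of 6.24, and control rats differed by -0.32. The other first genes of the list, Isg15 and Ifit2, differed by 0.07 and -0.01.

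Stat2, a transcription factor of the interferon response, had 8.77, 8.49, 8.62 and 8.67 at day 14, against 9.14, 9.30, 9.00 and 9.22 at day 3 in treated rats, and 9.19, 8.91, 9.05 and 9.13 at day 14, against 8.95, 8.87, 9.01 and 8.80 at day 3 in controls. The treated days did not overlap, and the differences had opposite signs, -0.53 in treated rats (limma adjusted p = 0.13) and 0.16 in controls, with -0.69 between them (limma adjusted p = 0.96, SE 0.15). The treated difference of Stat2 passed among clusters above the median cluster and among those with 1 symbol (limma adjusted p = 0.048 and 0.029). Cd74, the invariant chain of class II antigen presentation, differed by -0.80 in treated rats and by 0.87 in controls and was named after its values were seen.

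Among genes above the median cluster whose treated arrays did not overlap, those with the smallest p for a difference between the treated and the control change were Rps18l3, Rsph4a, Fosb and Rbbp7-ps1 among those higher, and Lgi4, Stat2, Gpr17 and Mpzl1 among those lower, none of which passed. Fosb, an immediate early transcription factor, differed by 0.21 in treated rats and by -0.13 in controls, both without overlap between the days. Rps18l3, a ribosomal protein-like gene, differed by 0.45 and -0.30.

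In the circadian clock, Bmal1, which with Clock forms the activating arm, had 9.22, 8.79, 8.74 and 8.72 in the treated rats of day 14, against 9.47, 9.50, 9.39 and 9.21 in those of day 3. Replicate 1 of day 14 just overlapped with the lowest array of day 3, and the difference of -0.52 (standard error 0.11) did not pass (limma adjusted p = 0.13), whereas controls differed by 0.18 without overlap. Without that replicate the difference of Bmal1 was -0.64 and passed (limma adjusted p = 0.011). It passed in 6 of 30 alternatives, with an adjusted p from limma between 0.011 and 1.00. Npas2, a partner that can replace Clock, differed by -0.32 without overlap, against 0.07 in controls, and Clock by -0.07. Per2, Dbp and Bhlhe41, which Bmal1 and Clock activate and which were named after their values were seen, were higher without overlap, with 0.31, 0.33 and 0.34 in treated rats and 0.05, 0.15 and 0.21 in controls. The median of 19 clock genes was 0.09 in treated rats and 0.09 in controls, and 0 passed. The hour of necropsy was not given in the sources used here, and its part was not tested.

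Of 20 astrocyte genes 3 were lower without overlap, with a median of -0.13, against -0.04 in controls. Gfap, the intermediate filament of astrocytes, and Aqp4, the water channel of their endfeet, differed by -0.55 and -0.44, both without overlap, and the glutamate transporter Slc1a2 by -0.17. Of 20 microglia and macrophage genes 2 were lower without overlap, with a median of -0.18, against 0.02 in controls and -0.08 with the red cell covariate in treated rats. Among all genes above the median cluster, 1251 of 14463 were lower without overlap. Neither the astrocyte nor the microglia count is read as a result about these cells. The microglial genes Cx3cr1, Aif1 and P2ry12 differed by -0.33, 0.03 and 0.05.

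The 14 pan-neuronal genes had a median of -0.04 with 0 without overlap, and the splicing factor Rbfox3, the tubulin Tubb3 and the microtubule protein Map2 differed by -0.05, -0.21 and 0.05. The mean over these genes was between 14.41 and 14.55 in treated rats of day 14 and between 14.40 and 14.55 in those of day 3. Of 20 monoaminergic genes, 4 were lower and 1 was higher without overlap, with a median of -0.06, which was -0.12 with arrays centred on their median, -0.15 with the red cell covariate and -0.04 with array weights. The mean over the 20 genes did not overlap, with 8.04 to 8.19 in treated rats of day 14 and 8.22 to 8.37 in those of day 3, against 8.20 to 8.34 and 8.09 to 8.42 in controls of day 14 and day 3. Tph2, the rate-limiting enzyme of serotonin synthesis in the brain, was named after its values were seen and had the largest difference of the list. It had 10.95, 9.33, 10.80 and 10.05 at day 14, against 12.33, 11.59, 11.31 and 12.07 at day 3 in treated rats, with -1.55 (limma adjusted p = 0.77, SE 1.01) and no overlap. Its controls differed by -0.92, with 7.55 in control day 14 replicate 1 and 11.24 or more in the other 3 arrays of that day. Slc6a4, the serotonin transporter, also named after its values were seen, differed by -1.22 without overlap (limma adjusted p = 0.74, SE 0.73), against -0.51 in controls. Slc18a2, which loads monoamines into vesicles, had 8.70, 8.65, 8.81 and 8.48 at day 14, against 9.58, 9.00, 9.03 and 9.17 at day 3 in treated rats, with -0.54 (limma adjusted p = 0.54) and 0.20 in controls. Ddc, the aromatic amino acid decarboxylase, differed by -0.40 without overlap, and Th, the tyrosine hydroxylase, by -0.07 with a standard error of 0.57. Genes of cholinergic and motor neurons and of glycine and GABA neurons had medians of -0.05 and -0.03.

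Genes of the respiratory chain, which rotenone blocks, had 0 of 35 complex I subunits without overlap, with a median of -0.06, against 0.04 in controls. Ndufs1, Ndufs3 and Ndufs4, subunits of complex I, differed by -0.02, -0.03 and 0.08. Complexes II to V had a median of -0.07 with 2 of 34 lower without overlap. Of the Nrf2 target and glutathione genes, 1 of 25 was lower without overlap, with a median of -0.04, and the quinone reductase Nqo1, the heme oxygenase Hmox1 and the ligase subunit Gclc differed by -0.13, -0.04 and 0.19. Neither this share nor that of complexes II to V exceeds the 1251 of 14463 among genes above the median cluster. The metallothioneins Mt1, Mt1m, Mt2A and Mt3 differed by -0.77, -0.36, -0.32 and -0.06 with overlap in each, and their median of -0.34 was -0.17 without treated day 3 replicate 2. Txnip, which restrains thioredoxin, differed by -0.04 with 11.39 to 11.61 at day 14 and 11.44 to 11.69 at day 3 in treated rats.

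In the lists of hypoxia, cytosolic heat shock, endoplasmic reticulum chaperones, the integrated stress response, the glucocorticoid response, immediate early genes and cold-induced RNA-binding genes, medians lay between -0.11 and 0.04 and 0 genes passed. P4ha1, which hydroxylates collagen, and Fkbp4, a co-chaperone of Hsp90, differed by -0.34 and -0.20 with overlap. Apoptosis and p53 genes had a median of -0.01 with 3 of 20 lower without overlap, and cell cycle genes one of -0.02, where Mki67, a marker of dividing cells, differed by -0.41 with overlap. The 3 of 20 stand beside 1251 of 14463 genes above the median cluster and are not read as a result. Insulin-like growth factor genes had a median of -0.16, which was 0.0051 with the red cell covariate, -0.10 after quantile normalization, -0.08 without treated day 14 replicate 4 and -0.11 without treated day 14 replicate 2. The lists of glucose use, mitochondrial chaperones, tubulins, iron, brain maturation, cerebellum and peptides had medians between -0.09 and 0.05. Abhd15 and Znf750 differed by -0.35 and 0.74 in treated rats, against 0.28 and -0.19 in controls, and did not pass.

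**Figure D5:**
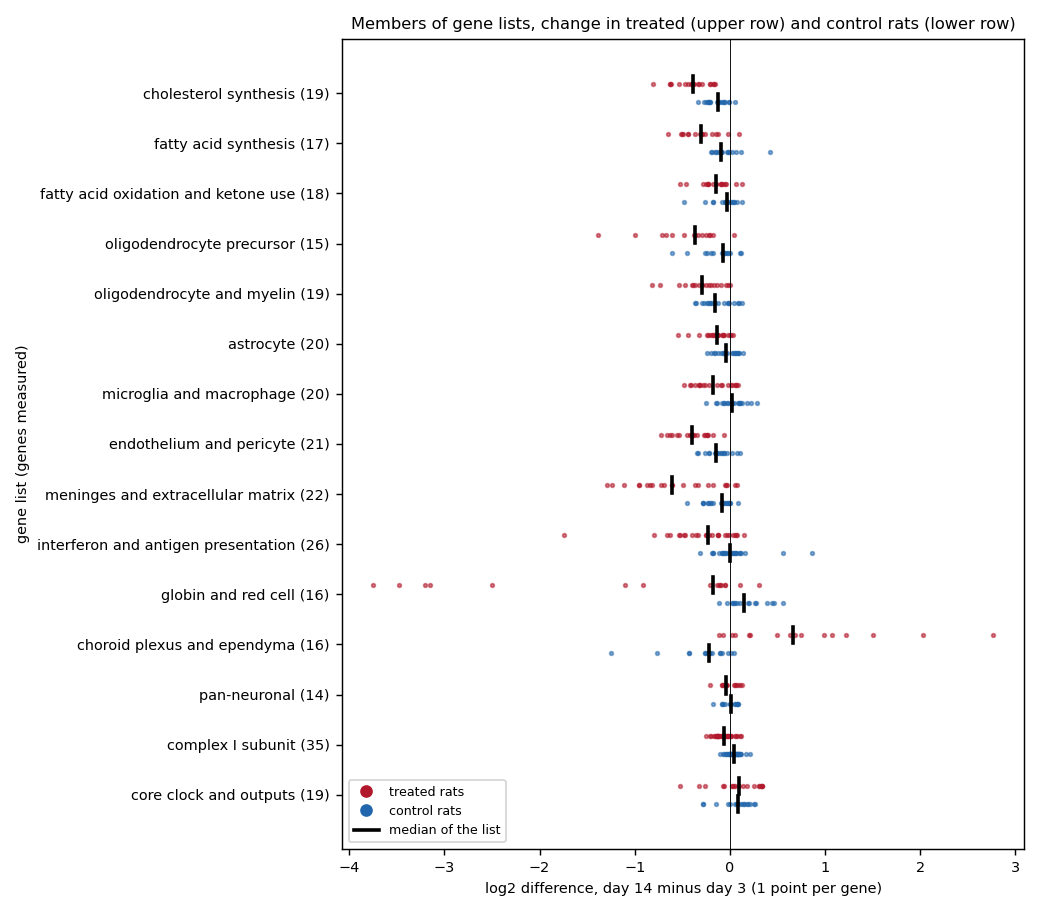
Log2 difference between day 14 and day 3 for each measured gene (points) of 15 lists, in treated rats (upper row of each list, red) and control rats (lower row, blue), with the median as a black bar. The medians of treated rats lie at -0.38 for cholesterol synthesis, -0.37 for oligodendrocyte precursors and 0.66 for choroid plexus.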

How the data were processed

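RNA from the brain stem was hybridised to Affymetrix GeneChip RTA 1.0 arrays, 1 array per rat. The deposited values were linear intensity values, 1 per transcript cluster, which the authors made by correction for GC content (GCCN), signal space transformation (SST) and RMA condensing. These steps set the arrays on a shared scale, so that a global shift of RNA would not be seen. The software version and genome build were not given in the sources used here, and arrays carry no read depth, so that the number of arrays limits the precision. Of 70580 entries, 1738 control probe sets were left out. The log2 of the deposited intensity was fitted with limma 3.58.1 under R 4.3.3 as 6 group means of 4 arrays each, and p-values were adjusted by Benjamini-Hochberg over 68842 clusters. No filter on dim clusters was used.

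Of the clusters, 23446 carried 1 gene symbol, 505 carried several and 44891 carried none, and none was named from several symbols. A gene was represented by its brightest cluster. Named were the genes past the adjusted p of 0.05, filled up to 10 in a direction by smallest p among non-overlapping genes above the median cluster, up to 4 in each direction for the difference between treated and control changes, the first 3 measured genes of each of 38 lists, and genes named in earlier results. The members and lists were chosen with earlier results of these data known. Single values were checked with a two-sided exact permutation test. The fit was tested on simulated data. Alternatives comprised scaling, moderation, filters, covariates, arrays in the fit and the block, of which 1 setting, identical clusters counted once, was chosen after seeing the data. The labels name no litter or batch, and p-values measure the spread between single rats. Upstream windows and the microRNA came from RefSeq on GRCr8, and figures were drawn with matplotlib 3.10.9.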

Additional observations from a re-analysis of the deposited data

Results flagged for a closer look

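Of 432 groups of 4 arrays examined (102 genes and 6 marker means in 4 groups each), 26 held 1 array whose gap to the others exceeded Dixon's critical value. Chance flags about 1 in 20 groups. Values are log2 intensities, and no cause was tested.

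In the treated day 14 group, single arrays stood apart for 4 of these. Rps18l3 had 8.40 in replicate 1, above the other 3 at 8.02 to 8.07. Bmal1 had 9.22 in replicate 1, above the other 3 at 8.72 to 8.79. Fkbp4 had 11.78 in replicate 1, above the other 3 at 11.63 to 11.64. Ndufs1 had 13.37 in replicate 2, below the other 3 at 13.62 to 13.66.

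In the treated day 3 group, single arrays stood apart for 10 of these. Prim1 had 9.98 in replicate 4, below the other 3 at 11.08 to 11.15. Myo18b had 6.30 in replicate 1, below the other 3 at 6.62 to 6.65. Mag had 14.79 in replicate 4, above the other 3 at 14.54 to 14.57. Pmvk had 8.46 in replicate 1, above the other 3 at 8.24 to 8.28. Alas2 had 8.35 in replicate 2, above the other 3 at 7.08 to 7.29. Ttr had 12.51 in replicate 2, above the other 3 at 7.88 to 8.20. Kl had 7.62 in replicate 2, above the other 3 at 5.47 to 5.79. Npas2 had 9.49 in replicate 4, below the other 3 at 9.79 to 9.84. Cx3cr1 had 10.80 in replicate 1, below the other 3 at 11.09 to 11.15. The choroid plexus marker mean had 7.59 in replicate 2, above the other 3 at 6.41 to 6.52.

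In the control day 14 group, single arrays stood apart for 3 of these. Map2 had 15.89 in replicate 1, above the other 3 at 15.79 to 15.81. Th had 12.76 in replicate 1, above the other 3 at 9.30 to 9.59. Gclc had 10.57 in replicate 3, above the other 3 at 10.26 to 10.29.

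In the control day 3 group, single arrays stood apart for 9 of these. Tnr had 11.55 in replicate 4, below the other 3 at 11.66 to 11.67. Rps18l3 had 8.50 in replicate 2, above the other 3 at 8.01 to 8.06. Cspg4 had 7.30 in replicate 2, above the other 3 at 7.23 to 7.23. Fasn had 13.46 in replicate 3, above the other 3 at 13.29 to 13.32. Cpt2 had 9.42 in replicate 4, above the other 3 at 9.18 to 9.20. Cd74 had 7.70 in replicate 2, above the other 3 at 7.00 to 7.12. Npas2 had 9.67 in replicate 4, below the other 3 at 9.83 to 9.84. P2ry12 had 9.19 in replicate 4, above the other 3 at 8.66 to 8.73. Slc6a4 had 11.17 in replicate 4, above the other 3 at 9.84 to 9.97.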

How the results depend on the processing

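The 13 clusters that differed in treated rats became 8 with arrays centred on their median, 27 without moderation, 36 among clusters above the median cluster, 42 among clusters with 1 symbol, 57 with array weights, 26 with the 16 arrays of days 3 and 14, 75 without 2 control day 1 arrays that held cerebellar transcripts, 23 with cerebellum and choroid plexus covariates and 23 at an adjusted p under 0.1. They became 0 with the red cell covariate and 0 with only the 8 treated arrays. A rank test with a ratio of at least 1.8 gave 70 (20 higher and 50 lower), of which 5 were among the 13. That rule uses another threshold than the adjusted p of the limma fit, so the 70 cannot be set against the 13 as a count. Leaving out 1 array gave 4 to 17 clusters. It gave 0 to 1 for controls (1 without control day 14 replicate 2 or control day 3 replicate 4) and 0 to 2 for the difference of the changes (2 without treated day 14 replicate 1, 1 without control day 3 replicate 4). Every other setting run gave 0 for both.

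With the replicate block, 8 clusters passed, all among the 13, and Sema4d, Ptpro, Lgi4 and Marcks no longer passed (adjusted p = 0.056, 0.12, 0.14 and 0.14, limma). The labels only share the numbers: deviations of same-numbered treated arrays correlated between -0.19 and 0.04, and 0 of 4 correlated best with their own number.

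Directions held in the 38 genes run singly under the alternatives (those past or filled up by the test and those named in earlier results, not the other list members) except for Txnip, with 0.0106 after quantile normalization, 0.0883 with the red cell covariate and -0.0851 to 0.000349 over the fits without 1 array (above 0 without treated day 14 replicate 3 or treated day 3 replicate 2), for Hba-a3 with 0.48 under the red cell covariate, and for Mt3 with -0.102 to 0.00978 over the fits without 1 array (above 0 without treated day 3 replicate 2). The cause was not tested. For Hba-a3, the red cell covariate holds the globin genes Hbb-b1 and Hba-a1, so it takes out the shared globin change by construction. Medians stayed below 0 in 31 settings for oligodendrocyte precursors (-0.48 to -0.28), myelin (-0.36 to -0.22), cholesterol synthesis (-0.46 to -0.27) and fatty acid synthesis (-0.37 to -0.18). With 4 rats a group, small differences were not detectable.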
